A study of Homo sapiens with 12 samples.

Results

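The genes described here are those whose response to Jiyuan oridonin A (JOA) could be compared between 2 leukemia cell lines, MOLM-13 and THP-1. Of 20030 genes in the deposited table, whose unit is FPKM (a count of fragments scaled to exon length and to the fragments mapped in the library), 9240 had a mean of at least 1 FPKM over the 6 libraries of each line and were tested. The comparison was the JOA effect in THP-1 cells minus the JOA effect in MOLM-13 cells, on the log2(FPKM + 0.1) scale, and 95 genes (1.03% of those tested) had an adjusted p under 0.05 for it by limma with Benjamini-Hochberg adjustment. Those 95 genes are called differing genes below. JOA is a diterpenoid of the ent-kaurene type and was given to MOLM-13 cells at 0.5 μM and to THP-1 cells at 2 μM, each for 48 h, while the controls of both lines received DMSO for 48 h. The time is that of the sample records, and another passage of the study gives a longer one. Each of the 4 groups had 3 libraries, numbered 1 to 3. The dose differed with the line, so a difference between the responses belongs to line and dose together, and these cannot be told apart.

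Both lines grow from monocytic acute myeloid leukemia with a rearranged MLL gene. MOLM-13 cells carry an internal tandem duplication in the receptor gene FLT3, and THP-1 cells have a wild-type FLT3. Each line stands for 1 patient's leukemia grown in culture, so a contrast of the lines is a contrast of 2 cell populations and not of 2 disease classes. The records do not say whether the 3 libraries of a group came from separate cultures, and p-values then measure the spread between these libraries, which may be technical. The myeloid markers chosen for both lines (SPI1, CD33, LYZ, CSF1R, CEBPA, LYN, FCGR2A, ITGB2 and CD4) summed to 2300 to 3810 FPKM in MOLM-13 libraries and 1220 to 1850 FPKM in THP-1 libraries. Markers of T, B, erythroid, epithelial and fibroblast cells summed to 3.79 FPKM or less in all 12 libraries. The endothelial list summed to 14.1 to 33.8 FPKM and holds PECAM1, which monocytic cells also make.

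Several of the pathways below are read from known target genes. ATF4 is the transcription factor of the integrated stress response. It is translated when amino acids run short or the endoplasmic reticulum is under load, and it switches on amino acid transporters, aminoacyl-tRNA synthetases and the pseudokinase TRIB3. NRF2 is released by electrophiles and oxidants and drives thioredoxin, glutathione and NADPH genes. The factors TFEB and TFE3 drive genes of the lysosome, the compartment in which a phagocyte digests what it has taken up. Primary granule proteases such as elastase mark the promyelocyte stage of myeloid cells.

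JOA moved more genes in THP-1 cells than in MOLM-13 cells at the doses used. In THP-1 cells 910 genes rose (9.85%) and 388 fell (4.2%) at an adjusted p under 0.05. In MOLM-13 cells 0 genes (0%) passed that threshold by limma in the same fit, where the lowest adjusted p was 0.0742. At an unadjusted p under 0.05, 714 genes were higher (7.73%) and 477 lower (5.16%) with JOA in MOLM-13 cells. Over all genes, the log2 fold change had a median size of 0.0875 for THP-1 and 0.0587 for MOLM-13. The spread behind these values was alike, since the SD of the 3 pair differences (JOA minus control of the same replicate number) had a median of 0.0917 in THP-1 cells and 0.094 in MOLM-13 cells.

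Among the 95 differing genes, the response of THP-1 cells lay above that of MOLM-13 cells in 49 (0.53% of the genes tested) and below it in 46 (0.498%). This split depended on the scaling of the libraries, with 33 above and 61 below after library median centring, 30 and 48 after quantile normalization and 130 and 46 after rescaling to TPM, in which every library sums to the same total. The size of the difference ran from 0.31 to 1.27 on the log2 scale and reached 0.58 in 29 genes. In 46 of the 95, all 3 pairs of one line moved one way and all 3 pairs of the other line moved the opposite way. In the other 49, all 3 THP-1 pairs agreed and passed the THP-1 test while MOLM-13 cells did not pass theirs, and 37 of these 49 had a MOLM-13 change under 0.1 in size. Since 0 genes passed the MOLM-13 test, a gene that moved in MOLM-13 cells alone could not be found by these rules, and in 31 of the 46 opposite genes the unadjusted MOLM-13 p was under 0.05. The THP-1 change was the larger one in 88 of the 95 genes, with a median size of 0.408 against 0.0983 in MOLM-13 cells. The 95 genes passed the THP-1 test in 92 cases and the MOLM-13 test in 0, and 38 had an unadjusted MOLM-13 p under 0.05. The pair differences of the lines did not overlap in any of the 95, as was so for 22.9% of all genes tested. The 95 were selected by a test on these same differences, so their separation is no added support. The count rests on all 12 libraries, since it fell to 20, 23 and 9 without replicate 1, 2 or 3 of MOLM-13 cells and to 5, 12 and 7 without replicate 1, 2 or 3 of THP-1 cells. It was 0 when the pairing of control and JOA libraries was left out of the fit, where 686 genes had an unadjusted p under 0.05 and the lowest adjusted p was 0.231, and 0 without a filter on low values, where 2142 genes had an unadjusted p under 0.05.

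**Figure D1:**
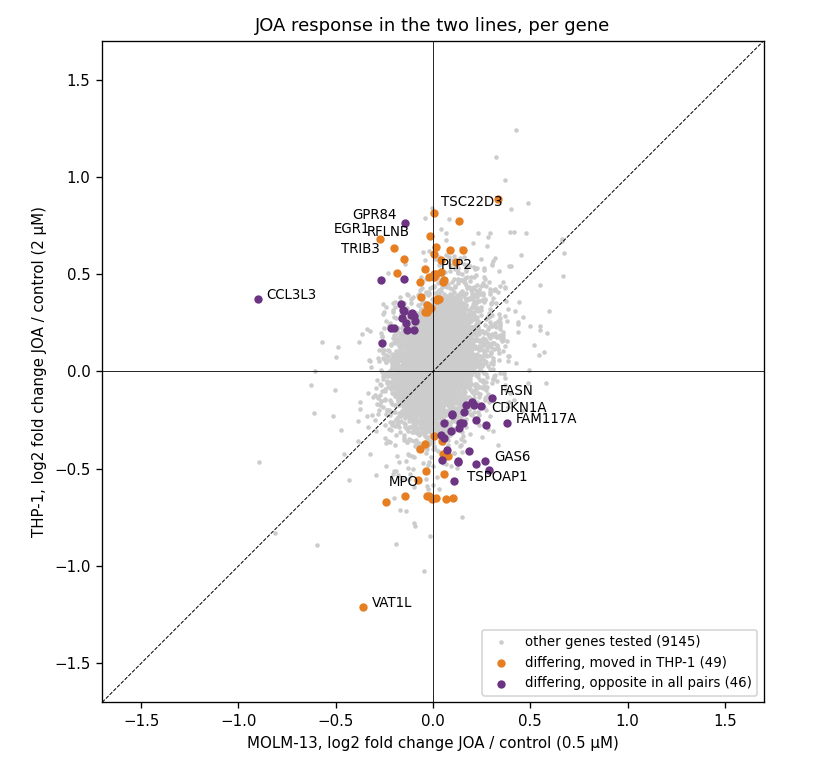
Log2 fold change with JOA in MOLM-13 cells (horizontal axis) against THP-1 cells (vertical axis) for each gene tested. Grey points are the other genes, orange points are the 49 differing genes that moved in THP-1 cells, purple points are the 46 that moved in opposite ways in all pairs, and the dashed line marks equal responses. Of the differing genes, 88 lie farther from 0 on the THP-1 axis and 7, CCL3L3 and FASN among them, on the MOLM-13 axis, and 2 genes fall outside the axes.

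The clearest differences were in RFLNB, PLP2, GAS6, TRIB3 and TSPOAP1, which had the 5 lowest adjusted p-values. RFLNB (chr17:439978-445940 on GRCh38) makes refilin B, a protein that binds filamin and bundles actin. It was at 66.4, 63.9 and 51.9 FPKM in MOLM-13 controls and 65.3, 61.5 and 53.2 FPKM with JOA, and at 30.8, 28.5 and 34.4 FPKM in THP-1 controls and 53.4, 45.1 and 53.7 FPKM with JOA. The 3 THP-1 JOA libraries were all above the 3 THP-1 controls, while the MOLM-13 groups overlapped. The RFLNB responses differed by 0.71 ± 0.06 (estimate ± SE here and below, from 3 pairs in each line, adjusted p = 0.0032 by limma). PLP2 (chrX:49171898-49175235), a multi-pass membrane protein of the endoplasmic reticulum, was at 123, 123 and 128 FPKM in MOLM-13 controls and 128, 120.3 and 128 FPKM with JOA, and at 33.3, 26.1 and 21.1 FPKM in THP-1 controls and 52.4, 37.8 and 32.5 FPKM with JOA. Its level in MOLM-13 cells stayed between 120.3 and 128 FPKM in all 6 libraries, and each THP-1 library rose against its paired control (difference 0.59 ± 0.06, adjusted p = 0.0051).

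GAS6 and TSPOAP1 moved in opposite ways. GAS6 (chr13:113820549-113864076) is the secreted ligand of the receptor kinases AXL, MERTK and TYRO3. It was at 74.6, 56.1 and 70.4 FPKM in MOLM-13 controls and 97.1, 67.3 and 78.3 FPKM with JOA, and at 42, 40.3 and 42.6 FPKM in THP-1 controls and 29.5, 31.8 and 29.5 FPKM with JOA. The 3 THP-1 JOA libraries were all below the THP-1 controls, whereas each MOLM-13 JOA library was above its own control and the MOLM-13 groups overlapped. GAS6 fell in THP-1 cells by 0.46 ± 0.05 (adjusted p = 0.00124), its change in MOLM-13 cells was 0.26 ± 0.05 (adjusted p = 0.113), and the difference was -0.72 ± 0.08 (adjusted p = 0.00586). TSPOAP1 (chr17:58301231-58328795), which makes a protein that binds the mitochondrial translocator TSPO, showed the same arrangement. It was at 17.2, 19.8 and 18 FPKM in MOLM-13 controls and 20, 21.2 and 19.1 FPKM with JOA, and at 5.62, 7.32 and 7.04 FPKM in THP-1 controls and 4.17, 5.11 and 5.12 FPKM with JOA. All 3 pairs fell in THP-1 cells and all 3 were higher in MOLM-13 cells (difference -0.59 ± 0.07, adjusted p = 0.01).

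**Figure D2:**
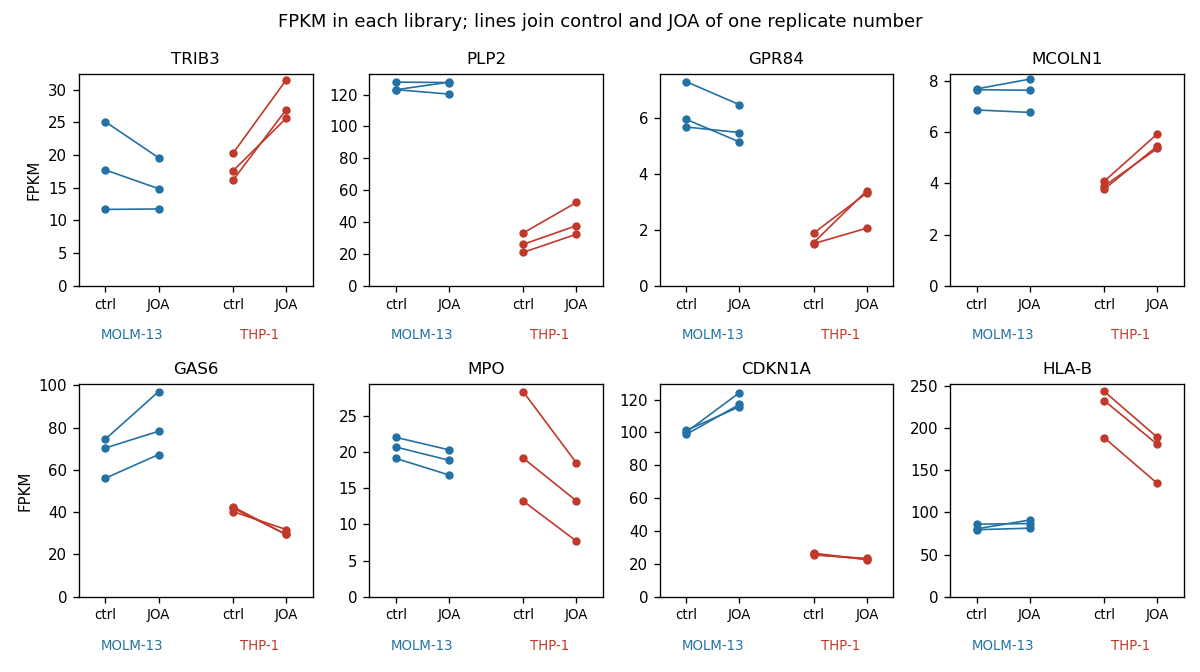
FPKM of 8 differing genes in each of the 12 libraries, with MOLM-13 in blue and THP-1 in red. Lines join the control and JOA libraries of one replicate number. In the upper row (TRIB3, PLP2, GPR84 and MCOLN1) every THP-1 line rises, in the lower row (GAS6, MPO, CDKN1A and HLA-B) every THP-1 line falls, and the MOLM-13 lines of GAS6, CDKN1A and HLA-B rise.

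Genes of the integrated stress response were lower with JOA in MOLM-13 cells, short of the adjusted threshold, and changed by little in THP-1 cells. Of 41 genes in the list 34 were tested. The difference was above 0 in 30 of the 34 (28 after library median centring), where 57.8% of all genes tested had it above 0. In 2 members (TRIB3 and SLC3A2) it had an adjusted p under 0.05. At an unadjusted p under 0.05, 11 lay above and 0 below, where 10.9% and 6.14% of all genes tested did. The median change in the list was -0.16 for MOLM-13 and -0.03 for THP-1, beside 0.0044 and 0.028 over all genes. In MOLM-13 cells 31 of the 34 were below 0 and 21 had an unadjusted p under 0.05 for a lower value, while in THP-1 cells 4 rose and 1 fell. Over all genes tested, 5.16% had such a lower value and 52.2% were above 0 in MOLM-13 cells. In THP-1 cells 9.85% of all genes rose and 4.2% fell.

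TRIB3 (chr20:380760-397559), the pseudokinase that ATF4 and its partner CHOP induce, was at 11.7, 25.1 and 17.7 FPKM in MOLM-13 controls and 11.8, 19.6 and 14.9 FPKM with JOA, and at 20.3, 17.6 and 16.1 FPKM in THP-1 controls and 31.4, 25.6 and 26.9 FPKM with JOA. The THP-1 JOA libraries were all above the THP-1 controls, and in MOLM-13 cells 2 of 3 pairs were lower and replicate 1 was level. TRIB3 rose in THP-1 cells by 0.64 ± 0.07 (adjusted p = 0.000815) and changed by -0.20 ± 0.07 in MOLM-13 cells (unadjusted p = 0.0135), a difference of 0.83 ± 0.09 (adjusted p = 0.00921). SLC3A2 makes the heavy chain shared by several amino acid transporters of the cell surface. It was at 48.1, 74.6 and 54.8 FPKM in MOLM-13 controls and 44.2, 68.5 and 46.1 FPKM with JOA, and at 47.9, 42.7 and 42 FPKM in THP-1 controls and 55.5, 52.5 and 60.5 FPKM with JOA. All 3 THP-1 pairs rose and all 3 MOLM-13 pairs were lower (difference 0.51 ± 0.08, adjusted p = 0.0273). Its partner SLC7A11, which imports cystine, differed by 0.72 ± 0.15 (adjusted p = 0.0528). It was at 0.956, 5.37 and 3.49 FPKM in MOLM-13 controls and 0.836, 3.21 and 1.95 FPKM with JOA, and at 6.01, 4.61 and 6.55 FPKM in THP-1 controls and 6.46, 5.24 and 7.41 FPKM with JOA. MOLM-13 replicate 1 had the lowest level of SLC7A11 in both the control and the JOA group, and all 3 MOLM-13 pairs were lower with JOA. The cationic amino acid transporter SLC7A1 differed by 0.26 ± 0.06 (adjusted p = 0.0554), again with all pairs opposite. ASNS, which makes asparagine, changed by -0.38 ± 0.13 for MOLM-13 and 0.15 ± 0.13 for THP-1, and the difference of 0.53 ± 0.18 did not pass (adjusted p = 0.174). ATF4 itself, whose activity is set mainly by translation, changed by -0.14 ± 0.04 and -0.06 ± 0.04.

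The letters TGATGNAA of the CARE element, to which ATF4 and its C/EBP partners bind, were found on either strand in 8 of the 28 members' promoters matched by symbol (28.6%), and in 1.56% of 7766 promoters of all genes tested. The sequences are RefSeq promoters on GRCh38.p14, from 250 bases before a start site to 50 after it. The first promoter listed for a gene was used, although 2154 of the genes tested have more than 1 listed, and its start site need not be the outermost start of the gene. For ASNS the site lies 56033 bases and for SLC3A2 25590 bases inside the outermost start. The 8 genes were AARS, ASNS, CARS, IARS, MARS, NARS, SLC3A2 and SLC7A1. In SLC3A2 the match lies 37 bases after the start, and the antioxidant response element TGACNNNGC, the NRF2 site, has a match 37 bases before it. The promoters of ASNS and SLC3A2 are printed 5′ to 3′ on the gene's strand from 150 bases before the start to 10 bases from it, to show where the elements lie, with the CARE match of ASNS (chr7:97872399-97872558, minus strand) and the antioxidant match of SLC3A2 (chr11:62881549-62881708, plus strand) in capitals.
ASNS: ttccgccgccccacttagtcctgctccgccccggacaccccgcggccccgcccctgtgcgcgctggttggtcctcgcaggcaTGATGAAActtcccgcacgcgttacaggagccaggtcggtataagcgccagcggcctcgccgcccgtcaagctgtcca
SLC3A2: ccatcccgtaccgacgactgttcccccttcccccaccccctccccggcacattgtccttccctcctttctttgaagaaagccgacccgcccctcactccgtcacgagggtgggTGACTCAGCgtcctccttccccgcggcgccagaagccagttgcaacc

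NRF2 target genes rose in THP-1 cells and their changes there lay above those in MOLM-13 cells. Of 28 genes in the list 23 were tested, and the difference was above 0 in 23 of 23 (22 of 23 after library median centring or quantile normalization). It was above 0 in 57.8% of all genes tested. TXNRD1 and GSR had an adjusted p under 0.05, and 11 had an unadjusted p under 0.05 with THP-1 above and 0 with THP-1 below. The median change was 0.37 in THP-1 cells, where 16 rose and 0 fell, and 0.10 in MOLM-13 cells. In MOLM-13 cells 8 were higher and 1 (SLC7A11) lower at an unadjusted p under 0.05. SLC7A11 is in the stress response list too, and is 1 of the 11 members here with THP-1 above. Over all genes tested, 10.9% and 6.14% had an unadjusted p under 0.05 for a difference with THP-1 above and below. In THP-1 cells 9.85% of all genes rose and 4.2% fell, and in MOLM-13 cells 7.73% were higher and 5.16% lower. TXNRD1 (chr12:104215779-104350307), the cytosolic thioredoxin reductase, was at 45.1, 42 and 41 FPKM in MOLM-13 controls and 43.1, 45.4 and 41.7 FPKM with JOA, and at 43, 45.3 and 52.2 FPKM in THP-1 controls and 57.4, 58.8 and 65.4 FPKM with JOA. Its THP-1 JOA libraries were all above the THP-1 controls and its MOLM-13 groups overlapped (difference 0.35 ± 0.06, adjusted p = 0.0372). GSR, which keeps glutathione reduced, was at 50.1, 48 and 47.4 FPKM in MOLM-13 controls and 48.2, 49.8 and 49.6 FPKM with JOA, and at 21.5, 21.4 and 22.7 FPKM in THP-1 controls and 30, 25.8 and 29.1 FPKM with JOA. The arrangement was the same as for TXNRD1 (difference 0.35 ± 0.07, adjusted p = 0.0493).

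The other NRF2 genes had smaller or less certain differences. The sulfiredoxin gene SRXN1 differed by 0.37 ± 0.08 (adjusted p = 0.0512). HMOX1, the heme oxygenase, rose by 1.24 ± 0.17 in THP-1 cells (adjusted p = 0.00246) and changed by 0.42 ± 0.17 in MOLM-13 cells, and its difference of 0.82 ± 0.24 did not pass (adjusted p = 0.127). HMOX1 was at 2.35, 1.2 and 0.988 FPKM in MOLM-13 controls and 2.33, 1.8 and 1.72 FPKM with JOA, and at 1.18, 1.9 and 1.77 FPKM in THP-1 controls and 3.2, 3.23 and 5.64 FPKM with JOA, and MOLM-13 replicate 1 was level while replicates 2 and 3 were higher with JOA. PGD of the pentose phosphate pathway rose in THP-1 cells by 0.50 ± 0.05 and had an unadjusted p of 0.000897 for a higher value in MOLM-13 cells, with a change of 0.22 ± 0.05. The letters of the antioxidant response element occurred in 6 of 17 matched promoters of the list (35.3%) and in 15.7% of all promoters. TXNRD1 (chr12:104215629-104215788, plus strand) holds the letters at 99 and 8 bases before the start, the latter on the reverse strand, and its promoter is printed because it had the lowest p of the list, with both matches in capitals.
TXNRD1: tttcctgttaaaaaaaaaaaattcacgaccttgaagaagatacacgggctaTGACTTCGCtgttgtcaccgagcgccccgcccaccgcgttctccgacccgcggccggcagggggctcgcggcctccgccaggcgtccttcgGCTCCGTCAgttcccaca

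Lysosomal genes rose in THP-1 cells and had smaller positive changes in MOLM-13 cells. Of 31 genes in the list 30 were tested, and 21 rose and 0 fell in THP-1 cells, with a median of 0.31. In MOLM-13 cells the median was 0.15, and 16 of 30 had an unadjusted p under 0.05 for a higher value and 0 for a lower one. The difference had an unadjusted p under 0.05 with THP-1 above in 16 members and with THP-1 below in 2 (CTSZ and CD63), and 1 member, MCOLN1, had an adjusted p under 0.05. Over all genes tested, 10.9% and 6.14% had an unadjusted p under 0.05 with THP-1 above and below. In THP-1 cells 9.85% of all genes rose and 4.2% fell, and in MOLM-13 cells 7.73% were higher and 5.16% lower at the unadjusted threshold. MCOLN1 (chr19:7522624-7534009), the calcium channel of the lysosomal membrane, was at 7.65, 7.68 and 6.86 FPKM in MOLM-13 controls and 7.62, 8.06 and 6.76 FPKM with JOA, and at 4.07, 3.77 and 3.89 FPKM in THP-1 controls and 5.92, 5.44 and 5.36 FPKM with JOA. The THP-1 JOA libraries were all above the THP-1 controls and the MOLM-13 groups overlapped (difference 0.48 ± 0.08, adjusted p = 0.0262). The membrane glycoproteins LAMP2 and LAMP1 differed by 0.29 ± 0.06 (adjusted p = 0.0554) and 0.27 ± 0.06 (adjusted p = 0.0756). The protease CTSZ went against the list, with a change of 0.31 ± 0.07 for MOLM-13 and 0.06 ± 0.07 for THP-1.

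3 lysosomal or autophagy genes outside the list were among the differing genes. DNASE2, the acid nuclease of lysosomes, was at 3.1, 3.26 and 3.21 FPKM in MOLM-13 controls and 3.18, 2.53 and 2.93 FPKM with JOA, and at 7.72, 6.27 and 12.8 FPKM in THP-1 controls and 11.4, 10.4 and 17.6 FPKM with JOA. Each THP-1 pair rose, although the 3 controls ranged more widely than the changes (difference 0.72 ± 0.11, adjusted p = 0.025). CCPG1, the receptor that delivers endoplasmic reticulum to autophagosomes, was at 5.58, 6.68 and 5.53 FPKM in MOLM-13 controls and 6.46, 6.47 and 6.52 FPKM with JOA, and at 10.1, 9.95 and 11.9 FPKM in THP-1 controls and 18, 17 and 19.8 FPKM with JOA. Its THP-1 groups did not overlap, and its MOLM-13 change was 0.13 ± 0.06 (difference 0.64 ± 0.09, adjusted p = 0.0231). ARSB, the lysosomal arylsulfatase B, rose by 0.48 ± 0.06 in THP-1 cells and had a difference of 0.48 ± 0.08 (adjusted p = 0.0311).

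The letters TCACGTGA of the CLEAR element, to which TFEB and TFE3 bind, were present in 4 of 19 matched lysosomal promoters (21.1%) and in 2.25% of all promoters, and the wider E-box CACGTG that they contain in 7 of 19 (36.8%) and 11%. MCOLN1 (chr19:7522474-7522633, plus strand) and LAMP1 (chr13:113297089-113297248, plus strand) each hold 2 CLEAR matches, which is why these promoters are printed, with the matches in capitals.
MCOLN1: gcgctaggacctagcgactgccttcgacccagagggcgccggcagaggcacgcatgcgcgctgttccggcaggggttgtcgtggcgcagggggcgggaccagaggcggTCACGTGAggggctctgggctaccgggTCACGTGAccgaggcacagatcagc
LAMP1: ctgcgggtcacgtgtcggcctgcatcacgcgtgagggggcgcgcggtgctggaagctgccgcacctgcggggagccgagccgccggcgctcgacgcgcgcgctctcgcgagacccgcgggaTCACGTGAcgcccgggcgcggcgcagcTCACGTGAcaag
Among the 95 differing genes, promoters were found for 39 with THP-1 above and 37 with THP-1 below. CLEAR matched 1 (2.56%) and 1 (2.7%) of these, and CARE 2 (5.13%) and 1 (2.7%). The antioxidant element matched 8 (20.5%) and 7 (18.9%), and the E-box 4 (10.3%) and 7 (18.9%). A match is a description of these letters and not a measured binding site.

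**Figure D3:**
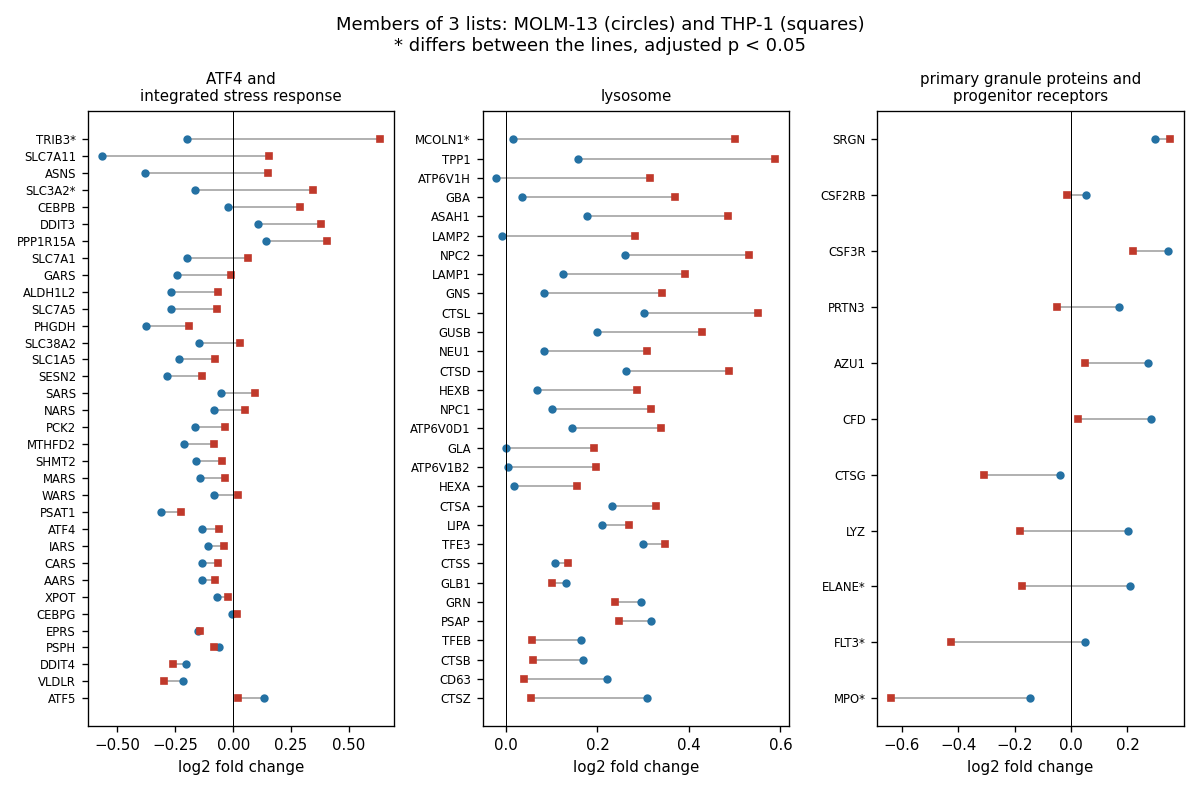
Log2 fold change with JOA of each tested member of 3 gene lists in MOLM-13 cells (blue circles) and THP-1 cells (red squares), ordered by the difference between the lines. Asterisks mark an adjusted p under 0.05 for the difference. Stress response members lie left of 0 in MOLM-13 cells in 31 of 34 cases, lysosomal members lie right of 0 in THP-1 cells in 30 of 30 (29 after quantile normalization), and MPO, FLT3 and ELANE stand at the foot of the granule panel.

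Genes of granules and of immature myeloid cells were the group with the lowest median difference among lists with more than 3 genes tested. Of 15 genes in the list 11 were tested, with a median difference of -0.26, a median change of -0.05 in THP-1 cells and of 0.20 in MOLM-13 cells. The adjusted p was under 0.05 in 3 (MPO, FLT3 and ELANE), each with THP-1 below, and 8 of 11 had an unadjusted p under 0.05 with THP-1 below. Over all genes tested, 0.498% had THP-1 below at the adjusted threshold and 6.14% at the unadjusted one. In THP-1 cells 4 members fell and 1 (SRGN) rose, where 4.2% and 9.85% of all genes did. In MOLM-13 cells 7 were higher and 1 lower at an unadjusted p under 0.05, where 7.73% and 5.16% of all genes were. SRGN was the 1 member with a difference above 0, with changes of 0.35 in THP-1 and 0.30 in MOLM-13 cells. CSF3R and CSF2RB differed by -0.13 and -0.07 (adjusted p = 0.757 and 0.785 by limma). In bulk libraries fewer cells of a stage and less RNA per cell cannot be told apart. MPO (chr17:58269855-58280935), the myeloperoxidase of primary granules, was at 22, 19.1 and 20.7 FPKM in MOLM-13 controls and 20.3, 16.8 and 18.9 FPKM with JOA, and at 28.3, 19.1 and 13.2 FPKM in THP-1 controls and 18.5, 13.2 and 7.68 FPKM with JOA. It fell in each THP-1 pair, by 0.64 ± 0.05 (adjusted p = 0.000297), and was lower in each MOLM-13 pair, with a change of -0.14 ± 0.05 (unadjusted p = 0.0199). Its difference of -0.49 ± 0.07 (adjusted p = 0.025) is one of size and not of direction. The 3 THP-1 controls ran from 13.2 to 28.3 FPKM, wider than the MPO changes within pairs, and the fall is therefore seen within replicate numbers.

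ELANE, the neutrophil elastase, was at 353, 284 and 313 FPKM in MOLM-13 controls and 446, 308 and 353 FPKM with JOA, and at 605, 537 and 539.9 FPKM in THP-1 controls and 522, 490.1 and 477 FPKM with JOA. It was lower with JOA in all 3 THP-1 pairs and higher in all 3 MOLM-13 pairs (difference -0.38 ± 0.07, adjusted p = 0.0372). PRSS57, a serine protease of the same granules, was at 292, 249 and 289 FPKM in MOLM-13 controls and 377, 287 and 309 FPKM with JOA, and at 17.9, 9.75 and 8.84 FPKM in THP-1 controls and 11.6, 8.3 and 5.87 FPKM with JOA. It too was opposite in all pairs (difference -0.70 ± 0.11, adjusted p = 0.025). FLT3 (chr13:28003274-28100576), the cytokine receptor that carries the tandem duplication in MOLM-13 cells, was at 76.2, 92.1 and 96.4 FPKM in MOLM-13 controls and 89.7, 88.9 and 94.4 FPKM with JOA, and at 13.2, 17.8 and 16.1 FPKM in THP-1 controls and 10.5, 12.9 and 11.4 FPKM with JOA. The 3 THP-1 JOA libraries were below the 3 THP-1 controls, while the MOLM-13 groups overlapped (difference -0.48 ± 0.08, adjusted p = 0.0366). CTSG, the granule protease cathepsin G, fell in THP-1 cells by 0.31 ± 0.04 and differed by -0.27 ± 0.07 (adjusted p = 0.0792). LYZ, CFD, AZU1 and PRTN3 each had an unadjusted MOLM-13 p under 0.05 for a higher value, with changes of 0.20 ± 0.08, 0.28 ± 0.07, 0.27 ± 0.07 and 0.17 ± 0.05, and THP-1 changes of -0.18 ± 0.08, 0.03 ± 0.07, 0.05 ± 0.07 and -0.05 ± 0.05.

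The class I gene HLA-B and 6 other genes of class I and peptide loading fell in THP-1 cells, and the remaining 8 of 15 did not. Of 17 genes of class I and peptide loading 15 were tested, 7 fell and 2 rose in THP-1 cells, and 8 had an unadjusted p under 0.05 for a difference with THP-1 below against 1 (ERAP1) above. The median was -0.15 in THP-1 cells and 0.04 in MOLM-13 cells, where 0 members had an unadjusted p under 0.05. Over all genes tested, 4.2% fell and 9.85% rose in THP-1 cells, and 7.73% were higher and 5.16% lower in MOLM-13 cells. The difference had an unadjusted p under 0.05 in 6.14% of all genes with THP-1 below and 10.9% above. HLA-B, a class I heavy chain, was at 86.1, 79.5 and 80.6 FPKM in MOLM-13 controls and 86.8, 81.4 and 91.1 FPKM with JOA, and at 189, 244 and 233 FPKM in THP-1 controls and 135, 189 and 181 FPKM with JOA. All 3 THP-1 pairs fell and all 3 MOLM-13 pairs were slightly higher (difference -0.48 ± 0.07, adjusted p = 0.0231). HLA-C, another heavy chain, differed by -0.32 ± 0.07 (adjusted p = 0.0554). Genes of the class I heavy chains are near-identical copies, and their values are uncertain as far as reads were shared among them. PSMB9, a catalytic subunit of the immunoproteasome, was at 8.59, 8.52 and 9.79 FPKM in MOLM-13 controls and 10.4, 8.44 and 8.51 FPKM with JOA, and at 21.6, 30.1 and 27.1 FPKM in THP-1 controls and 12.9, 23.3 and 18.9 FPKM with JOA, a difference of -0.56 ± 0.12 (adjusted p = 0.0554). Of 12 class II genes, 3 passed the filter in both lines, since most were near 0 in MOLM-13 cells. The invariant chain CD74 fell in THP-1 cells by 0.38 ± 0.06 and differed by -0.39 ± 0.08 (adjusted p = 0.0512), and HLA-DRA differed by -0.68 ± 0.18 (adjusted p = 0.108).

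The cell cycle inhibitor CDKN1A and the antiviral gene TRIM22 moved in opposite ways in the lines. CDKN1A (chr6:36676463-36687332), which makes the cyclin-dependent kinase inhibitor p21, was at 100.2, 101 and 98.8 FPKM in MOLM-13 controls and 124, 116 and 117 FPKM with JOA, and at 26.5, 25.8 and 25.4 FPKM in THP-1 controls and 22.7, 22.8 and 23.3 FPKM with JOA. The groups did not overlap in either line, and they moved in opposite ways. CDKN1A fell in THP-1 cells by 0.18 ± 0.04 (adjusted p = 0.0212), its change in MOLM-13 cells was 0.25 ± 0.04 (unadjusted p = 0.000127, adjusted p = 0.0742), and the difference was -0.42 ± 0.06 (adjusted p = 0.0238). TRIM22, which interferon induces, differed by -0.34 ± 0.06 (adjusted p = 0.0372) with all pairs opposite.

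Lipid synthesis genes had lower responses in THP-1 than in MOLM-13 cells for most members. Of 30 genes of sterol and fatty acid synthesis 29 were tested. The difference was below 0 in 25 (21 after rescaling to TPM), while 57.8% of all genes tested had it above 0. At an unadjusted p under 0.05, 11 lay with THP-1 below and 1 (SC5D) above. In THP-1 cells 3 (PMVK, SC5D and STARD4) rose and 1 (LSS) fell, where 9.85% and 4.2% of all genes did. The median change was 0.09 for MOLM-13 and -0.08 for THP-1. Over all genes tested, 6.14% had an unadjusted p under 0.05 with THP-1 below and 10.9% with THP-1 above. FASN, the fatty acid synthase, was at 52.8, 54.3 and 55 FPKM in MOLM-13 controls and 75.8, 62.7 and 62.1 FPKM with JOA, and at 96.6, 88.2 and 74.1 FPKM in THP-1 controls and 88.8, 80.1 and 66.6 FPKM with JOA. All 3 MOLM-13 pairs were higher and all 3 THP-1 pairs lower, the groups of MOLM-13 cells did not overlap, and the difference was -0.44 ± 0.09 (adjusted p = 0.0469). FASN was one of 7 differing genes with the larger change in MOLM-13 cells. LSS, the lanosterol synthase, differed by -0.34 ± 0.08 (adjusted p = 0.06), SCD by -0.45 ± 0.13 (adjusted p = 0.121) and SREBF1, the gene of the lipid synthesis factor SREBP1, by -0.52 ± 0.17 (adjusted p = 0.17). The sterol element TCACNCCAC matched 1 of 23 promoters of the list (4.35%) and 1.04% of all promoters.

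Cell cycle genes were lower with JOA in MOLM-13 cells for each member tested, most of them by little. Of 23 mitosis genes, 23 were below 0 in MOLM-13 cells, 8 with an unadjusted p under 0.05, and the difference was above 0 in 23 (21 after library median centring and 22 after quantile normalization), with 9 at an unadjusted p under 0.05. Of 26 DNA replication genes, 26 were below 0 in MOLM-13 cells, 16 with an unadjusted p under 0.05, and 10 had an unadjusted p under 0.05 for a difference with THP-1 above. Median changes of the lists were -0.10 and -0.14 for MOLM-13 and 0.05 and 0.00 for THP-1. Over all genes tested, 52.2% were above 0 in MOLM-13 cells and 5.16% were lower there at an unadjusted p under 0.05. A difference with THP-1 above passed that threshold in 10.9% of all genes, and 57.8% had a difference above 0. In both lists 0 members had an adjusted p under 0.05 for the difference by limma. RRM2, a subunit of ribonucleotide reductase, differed by 0.38 ± 0.08 (adjusted p = 0.0554) and the spindle protein TPX2 by 0.24 ± 0.06 (adjusted p = 0.0877). 2 differing genes outside the lists belong here. PKMYT1, the kinase that holds CDK1 inactive, was at 10.8, 10.1 and 8.16 FPKM in MOLM-13 controls and 9.35, 7.9 and 6.87 FPKM with JOA, and at 9.88, 9.7 and 9.36 FPKM in THP-1 controls and 11.8, 10.3 and 10.1 FPKM with JOA, lower in all 3 MOLM-13 pairs and higher in all 3 THP-1 pairs (difference 0.41 ± 0.08, adjusted p = 0.0406). MELK, a kinase of dividing cells, differed by 0.44 ± 0.07 (adjusted p = 0.0293), again with all pairs opposite.

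**Figure D4:**
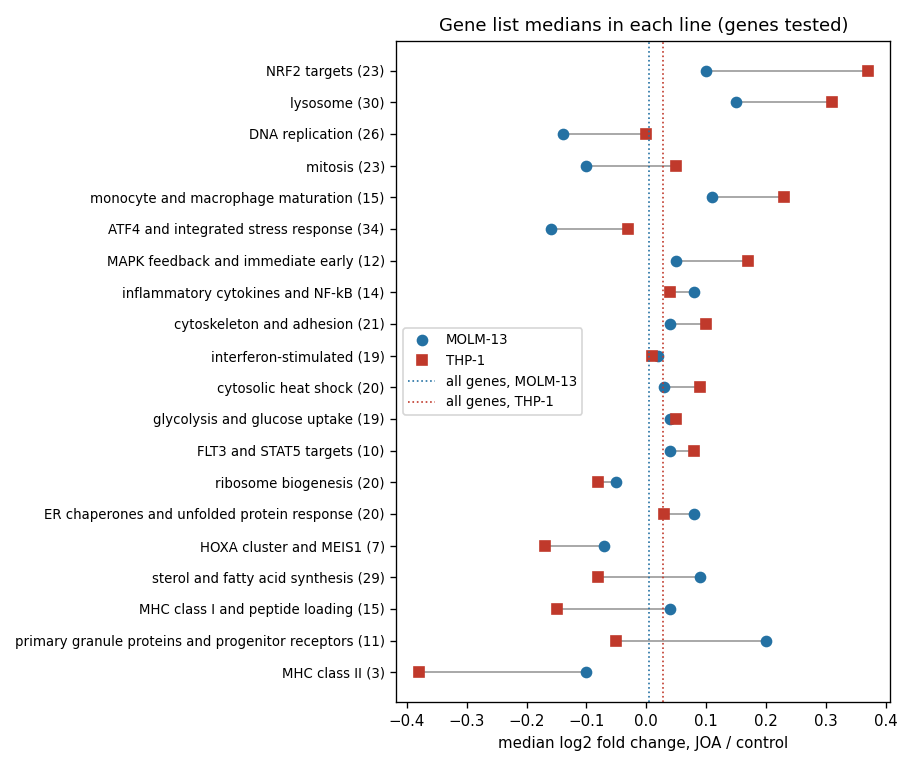
Median log2 fold change with JOA over the tested members of 20 gene lists in MOLM-13 cells (blue circles) and THP-1 cells (red squares), with the number of genes tested in brackets. Dotted lines give the medians of all 9240 genes, 0.0044 for MOLM-13 and 0.028 for THP-1. NRF2 targets and lysosomal genes lie highest in THP-1 cells, and stress response, replication and mitosis genes lie lowest in MOLM-13 cells.

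EGR1 and ETV4, which MAPK signaling induces, and the receptor gene GPR84 rose in THP-1 cells and were among the differing genes. EGR1, an immediate early factor, was at 0.426, 2.66 and 2.16 FPKM in MOLM-13 controls and 0.382, 1.61 and 2.16 FPKM with JOA, and at 2.99, 3.48 and 3.88 FPKM in THP-1 controls and 4.82, 5.33 and 6.64 FPKM with JOA. It rose in each THP-1 pair, and its MOLM-13 level was set apart by replicate 1, which lay under 0.5 FPKM in both groups (difference 0.95 ± 0.17, adjusted p = 0.0366). ETV4, an ETS factor that ERK signaling induces, was at 4.97, 5.17 and 3.88 FPKM in MOLM-13 controls and 4.68, 4.52 and 3.42 FPKM with JOA, and at 2.97, 2.81 and 2.52 FPKM in THP-1 controls and 4.01, 3.44 and 4.21 FPKM with JOA. All pairs of ETV4 were opposite (difference 0.63 ± 0.12, adjusted p = 0.0406), and its relative ETV5 differed by 0.55 ± 0.12 (adjusted p = 0.0554). Of 24 genes in the MAPK list 12 were tested, with 5 against 0 at an unadjusted p under 0.05 with THP-1 above and a median difference of 0.10. Over all genes tested, 10.9% lay above and 6.14% below at that threshold. GPR84, a receptor of phagocytes for medium-chain fatty acids, was at 5.69, 7.31 and 5.96 FPKM in MOLM-13 controls and 5.49, 6.49 and 5.15 FPKM with JOA, and at 1.55, 1.52 and 1.89 FPKM in THP-1 controls and 3.41, 2.07 and 3.33 FPKM with JOA. All pairs were opposite (difference 0.91 ± 0.15, adjusted p = 0.0302).

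CCL3L3, a chemokine gene of the CCL3 family, had the highest difference of the 95. It was at 1.23, 7.35 and 7.52 FPKM in MOLM-13 controls and 0.364, 3.89 and 6.16 FPKM with JOA, and at 2.33, 2.38 and 2.62 FPKM in THP-1 controls and 2.9, 3.56 and 3.13 FPKM with JOA. The MOLM-13 pair differences ran from -1.52 to -0.28, and replicate 1 was again the lowest in both groups. CCL3L3 changed by -0.90 ± 0.17 in MOLM-13 cells (unadjusted p = 0.000386) and by 0.37 ± 0.17 in THP-1 cells (adjusted p = 0.185), a difference of 1.27 ± 0.25 (adjusted p = 0.0468). It has near-identical copies in the genome, so that its value is uncertain where reads were shared. CCL3 differed by 0.67 ± 0.18 (adjusted p = 0.102) and TNF by 0.56 ± 0.13 (adjusted p = 0.0765). Of 14 genes tested of the 24 in the NF-kB list, 3 had an unadjusted p under 0.05 with THP-1 above and 1 below, and 0 had an adjusted p under 0.05. Over all genes tested, 10.9% lay above and 6.14% below at the unadjusted threshold.

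**Figure D5:**
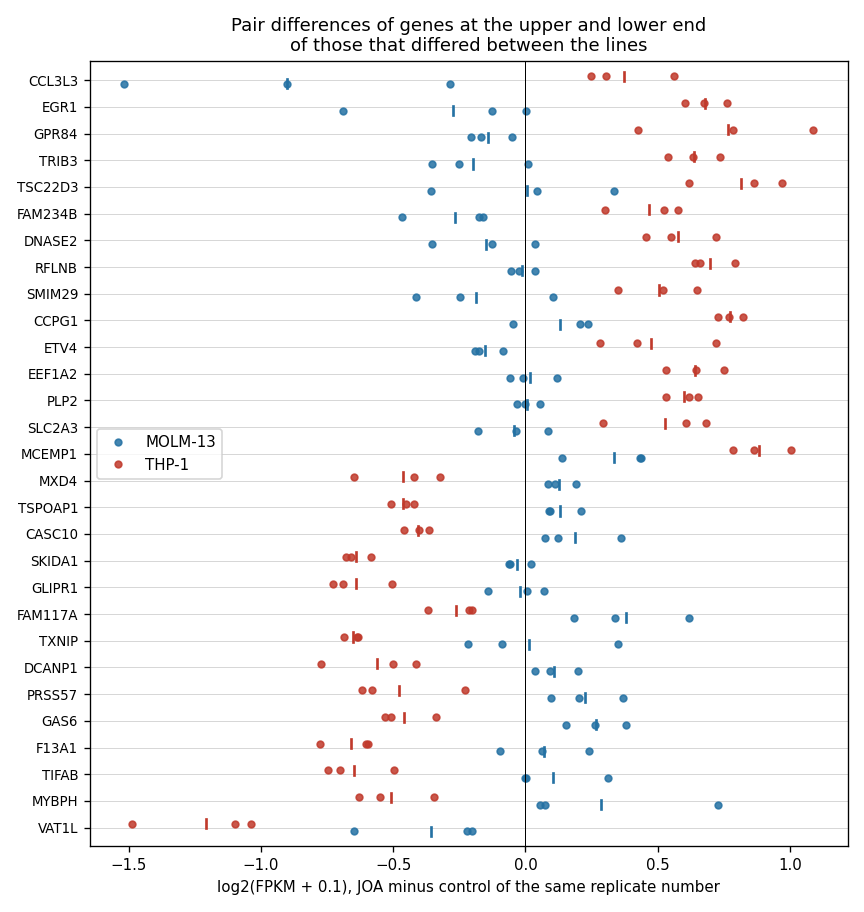
JOA minus control on the log2(FPKM + 0.1) scale for each replicate number (points) and their mean (bars) in MOLM-13 cells (blue) and THP-1 cells (red), for the 15 differing genes with the highest difference and 14 of the 15 with the lowest. The points of the lines do not overlap in any row, and these genes were selected by a test on the same differences. MOLM-13 points scatter about 0 in rows such as RFLNB, PLP2 and GLIPR1 and lie on the other side of 0 from THP-1 in rows such as FAM234B, GAS6 and FAM117A.

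The other differing genes at the upper end rose in THP-1 cells, with smaller or mixed MOLM-13 changes. TSC22D3, a glucocorticoid-induced leucine zipper protein, was at 3.1, 7.02 and 6.77 FPKM in MOLM-13 controls and 3.93, 5.45 and 6.97 FPKM with JOA, and at 3.57, 2.55 and 1.52 FPKM in THP-1 controls and 7.08, 3.97 and 2.84 FPKM with JOA, with MOLM-13 pairs on both sides of 0 (difference 0.81 ± 0.16, adjusted p = 0.0493). SLC2A3, a glucose transporter, was at 11.1, 26.2 and 26.7 FPKM in MOLM-13 controls and 11.8, 23.1 and 26 FPKM with JOA, and at 1.93, 1.94 and 1.71 FPKM in THP-1 controls and 3.16, 2.4 and 2.66 FPKM with JOA. SLC2A3 was far lower in THP-1 than in MOLM-13 cells, where replicate 1 was the lowest in both groups. It rose in THP-1 cells by 0.53 ± 0.08 (adjusted p = 0.00362), and its MOLM-13 pairs lay on both sides of 0 (difference 0.57 ± 0.11, adjusted p = 0.0475). Since 0 genes passed the MOLM-13 test, the tests of each line cannot show a rise in THP-1 cells alone. MCEMP1, a membrane protein of myeloid cells, rose by 0.88 ± 0.07 in THP-1 cells and was also higher in all 3 MOLM-13 pairs, by 0.34 ± 0.07 (unadjusted p = 0.000461), so that it differed in size (difference 0.55 ± 0.09, adjusted p = 0.0329). EEF1A2, a translation elongation factor, and SMIM29 differed by 0.63 ± 0.10 (adjusted p = 0.025) and 0.69 ± 0.13 (adjusted p = 0.0427). FAM234B was opposite in all pairs, at 2.77, 3.14 and 2.94 FPKM in MOLM-13 controls against 2.47, 2.77 and 2.1 FPKM with JOA, and at 2.73, 2.51 and 2.71 FPKM in THP-1 controls against 3.39, 3.8 and 3.94 FPKM with JOA (difference 0.73 ± 0.12, adjusted p = 0.0309).

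The remaining genes at the lower end fell in THP-1 cells. VAT1L had the lowest difference of the 95 and was at 3.09, 4.73 and 4 FPKM in MOLM-13 controls and 2.63, 2.98 and 3.46 FPKM with JOA, and at 3.33, 3.07 and 2.56 FPKM in THP-1 controls and 1.12, 1.38 and 1.19 FPKM with JOA. It fell by 1.21 ± 0.11 in THP-1 cells and was lower in all 3 MOLM-13 pairs too, by -0.36 ± 0.11 (difference -0.85 ± 0.16, adjusted p = 0.0406). TXNIP, which binds thioredoxin and restrains glucose uptake, was at 33, 61.8 and 61.4 FPKM in MOLM-13 controls and 42, 53.1 and 57.8 FPKM with JOA, and at 24.3, 31.1 and 31 FPKM in THP-1 controls and 15.6, 20 and 19.2 FPKM with JOA. MOLM-13 replicate 1 was higher with JOA and replicates 2 and 3 were lower, while the THP-1 groups did not overlap (difference -0.67 ± 0.12, adjusted p = 0.0372). F13A1, the A subunit of coagulation factor XIII, fell in THP-1 cells by 0.66 ± 0.08 and changed by 0.07 ± 0.08 in MOLM-13 cells, with a difference of -0.73 ± 0.12 (adjusted p = 0.0273). TIFAB, GLIPR1 and SKIDA1 fell there by 0.65 ± 0.07, 0.64 ± 0.06 and 0.64 ± 0.07. MXD4, a partner of MAX that opposes MYC, and the genes DCANP1, CASC10, MYBPH and FLVCR2 were opposite in all pairs, with differences of -0.59 ± 0.10, -0.67 ± 0.10, -0.59 ± 0.09, -0.79 ± 0.16 and -0.55 ± 0.11 (adjusted p from 0.025 to 0.0493). DCANP1 (chr5:135444214-135447348) overlaps TIFAB (chr5:135444226-135452351). Their values are uncertain where reads were shared, and their differences may not be separate results.

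FAM117A had the largest MOLM-13 change among the opposite genes with THP-1 below. It was at 7.47, 9.09 and 9.43 FPKM in MOLM-13 controls and 11.5, 10.3 and 12 FPKM with JOA, and at 6.1, 8.25 and 9.2 FPKM in THP-1 controls and 5.24, 6.36 and 7.98 FPKM with JOA. The MOLM-13 groups did not overlap, and the THP-1 groups did (difference -0.64 ± 0.11, adjusted p = 0.0309). Over all 9240 genes, 332 had all 3 pairs up in THP-1 cells and all 3 down in MOLM-13 cells (3.59%), and 167 had the reverse (1.81%). Of these, 265 and 130 had an unadjusted p under 0.05 for the difference. COL8A2, TIAF1, TUBB3 and DGCR6 were among those 395 with the largest changes in both lines, with differences of -0.62 ± 0.16, -0.71 ± 0.20, 0.60 ± 0.18 and 0.50 ± 0.20, and none of the 4 had an adjusted p under 0.05 (adjusted p from 0.0971 to 0.236 by limma).

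Some genes differed by as much without passing the adjusted test. C11orf71 and KLF2, a zinc finger factor of quiescent immune cells, differed by 0.85 ± 0.17 (adjusted p = 0.0512) and 0.78 ± 0.19 (adjusted p = 0.0756), and CCZ1 by 0.74 ± 0.21 (adjusted p = 0.121). MUC1, C16orf74 and SYNGR1 differed by -0.90 ± 0.23 (adjusted p = 0.0975), -0.83 ± 0.19 (adjusted p = 0.0589) and -0.70 ± 0.16 (adjusted p = 0.0668). CCZ1 has a near-identical copy, and its value is uncertain. The genes of this paragraph were named by a rule that required no overlap of pair differences between the lines. That separation is therefore no added support.

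Of 26 genes that the study names as responding to JOA, 9 passed the filter in both lines and none of the 9 had an adjusted p under 0.05 for the difference. ITGAM, the integrin chain CD11b, was at 2.27, 3.14 and 3.21 FPKM in MOLM-13 controls and 4.2, 3.63 and 3.5 FPKM with JOA, and at 2.81, 4.43 and 4.58 FPKM in THP-1 controls and 6.77, 6.47 and 5.94 FPKM with JOA. It rose in THP-1 cells by 0.71 ± 0.17 (adjusted p = 0.0195), changed by 0.39 ± 0.17 in MOLM-13 cells (unadjusted p = 0.0386), and differed by 0.32 ± 0.24 (adjusted p = 0.533). FCER2, the low-affinity IgE receptor CD23, changed by 0.86 ± 0.16 and 0.49 ± 0.16 and FGR, a SRC family kinase, by 0.68 ± 0.22 and 0.66 ± 0.22 in THP-1 and MOLM-13 cells, with differences of 0.38 ± 0.23 and 0.02 ± 0.32. LRFN3 and TREM2 were higher in all 3 MOLM-13 pairs, with differences of -0.34 ± 0.16 (adjusted p = 0.315) and -0.22 ± 0.15 (adjusted p = 0.505), and TLR6 differed by 0.53 ± 0.16 (adjusted p = 0.135). CD99 was at 5.79, 5.55 and 3.53 FPKM in MOLM-13 controls and 5.4, 0.356 and 4.71 FPKM with JOA, and at 0.207, 8.07 and 5.16 FPKM in THP-1 controls and 0.221, 0.222 and 0.173 FPKM with JOA. A level under 0.4 FPKM was found in 1 MOLM-13 JOA library, 1 THP-1 control library and all 3 THP-1 JOA libraries of CD99, so that its difference of -1.85 ± 1.23 (adjusted p = 0.482) has a wide error. The other 17 fell below the filter in at least 1 line. KIT was one of them, with a mean of 0.0645 FPKM in MOLM-13 cells and 1.05 FPKM in THP-1 cells, and the comparison of its response between lines was not made.

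The remaining lists are given by their members with an unadjusted p under 0.05 for the difference, where 10.9% of all genes tested lay above and 6.14% below. Heat shock genes had 1 above and 0 below of 20 and endoplasmic reticulum chaperones 3 above and 3 below of 20. Of the monocyte and macrophage genes, 15 of 30 were tested, and 9 rose in THP-1 cells, where 9.85% of all genes did. In that list 2 above and 1 below had an unadjusted p under 0.05 for the difference. The interferon list had 0 above and 2 below of 19, ribosome biogenesis 0 and 3 of 20, glycolysis 2 and 0 of 19, cytoskeleton and adhesion 2 and 2 of 21, FLT3 and STAT5 targets 1 and 2 of 10, and the HOXA cluster with MEIS1 0 and 0 of 7. Apart from SLC2A3 in the glycolysis list, 0 members of these lists had an adjusted p under 0.05 for the difference by limma.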

How the data were processed

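Stranded mRNA libraries of 12 samples were sequenced as paired 150 bp reads, and FPKM estimates made by the authors were deposited in one table. Per the submitters' processing notes, Trimmomatic, HISAT2, Cufflinks, HTSeq and the hg38 build were used, with versions and annotation not given in the sources used here. FPKM keeps no depth, so the depth is unknown, no counting interval was computed and no count test was run. The table holds 20030 genes, of which 3488 are at 0 in all libraries, and 27 rows carry a date in place of a symbol (14 of them tested, none named).

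The FPKM values were used as deposited. Genes with a mean of at least 1 FPKM in each line were fitted on log2(FPKM + 0.1) with limma 3.58.1 in R 4.3.3 (lmFit, eBayes with a mean-variance trend), with replicate number within line as a block of 6 pairs, 4 residual degrees of freedom and two-sided p-values adjusted by Benjamini-Hochberg over 9240 genes. The replicate numbers come from the sample titles. The block was set by the plan of the comparison and not chosen from the data. After subtraction of group means, control and JOA libraries of the same number correlated at 0.382 to 0.551 (MOLM-13) and 0.279 to 0.543 (THP-1). Those of different numbers correlated at 0.0226 or less. Deviations from a group mean cancel out within the group, so positive values for the same number force lower ones for different numbers. Within a line, libraries correlated at 0.988 to 0.997 over genes. The procedure was tested on simulated data. Alternatives covered the pseudocount, filter, scaling, block, variance model, thresholds and leaving out each pair. The block ties a library to its pair, so leaving out 1 library leaves out both.

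The members and gene lists were chosen with earlier results of these data known. Genes were named by rule: the 15 highest and 15 lowest differing genes, the 10 highest and 10 lowest differences among genes with an unadjusted p under 0.01 and no overlap of pair differences, the 10 opposite genes with the largest smaller change, list members with an unadjusted p under 0.05, and genes the study names. ARSB, PKMYT1, MELK and ATF4 fall outside it and were chosen after their values were seen. Some genes and 1 list that the rule covers are not reported here. Promoters and gene positions come from RefSeq (GRCh38.p14), and motifs were searched with Python 3.11.15 on both strands.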

Additional observations from a re-analysis of the deposited data

Results flagged for a closer look

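Each gene here had a JOA effect that differed between THP-1 and MOLM-13 cells in a test of the difference itself (limma, adjusted p under 0.05 over 9240 genes), and was named in the report, by the rule for named genes or after its values were seen (ARSB, MELK and PKMYT1). Values are the THP-1 minus the MOLM-13 log2 fold change. In 22 named genes the THP-1 response lay above: CCL3L3 1.27, EGR1 0.95, GPR84 0.91, TRIB3 0.83, TSC22D3 0.81, FAM234B 0.73, DNASE2 0.72, RFLNB 0.71, SMIM29 0.69, CCPG1 0.64, ETV4 0.63, EEF1A2 0.63, PLP2 0.59, SLC2A3 0.57, MCEMP1 0.55, SLC3A2 0.51, ARSB 0.48, MCOLN1 0.48, MELK 0.44, PKMYT1 0.41, TXNRD1 0.35 and GSR 0.35. In 22 the THP-1 response lay below: TRIM22 -0.34, ELANE -0.38, CDKN1A -0.42, FASN -0.44, FLT3 -0.48, HLA-B -0.48, MPO -0.49, FLVCR2 -0.55, MXD4 -0.59, TSPOAP1 -0.59, CASC10 -0.59, SKIDA1 -0.61, GLIPR1 -0.62, FAM117A -0.64, TXNIP -0.67, DCANP1 -0.67, PRSS57 -0.70, GAS6 -0.72, F13A1 -0.73, TIFAB -0.75, MYBPH -0.79 and VAT1L -0.85. In 11 of these 44 genes (CCL3L3, EGR1, TRIB3, TSC22D3, EEF1A2, SLC2A3, SLC3A2, SKIDA1, GLIPR1, TXNIP and VAT1L) MOLM-13 levels were lowest in replicate 1, in the control and the JOA library alike, and the part of that library pair in their differences was not tested apart from leaving it out of the fit. The dose differed with the line for every value given.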

How the results depend on the processing

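The 95 differing genes kept the sign of their difference in all 18 other settings in which they were tested (68 of them at a filter of 5 FPKM), and those tested kept an unadjusted p under 0.05 in each of these except the fit without the pairing, where 81 did. The settings reuse the same libraries and the genes were chosen for this difference, so a kept sign is no independent support for its direction. The number of differing genes varied with the setting. Against 95, it was 33 at a filter of 0.1 FPKM (11355 genes tested), 0 with no filter (16542 genes), 176 after rescaling to TPM, 5 without a variance trend, 232 with array weights, 29 with an added difference of 0.58, 296 at an adjusted p under 0.1 and 1576 at an unadjusted p under 0.05. Leaving out one pair gave 5 to 23, and 117, 101, 137, 94, 78 and 100 were found with pseudocounts of 1 and 0.01, a filter of 5 FPKM, library median centring, quantile normalization and robust variance. The split into THP-1 above and below was 49 and 46, and became 33 and 61 with centring, 30 and 48 with quantile normalization and 130 and 46 with TPM, while the median difference of all genes moved from 0.026 to between -0.0046 and 0.062.

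Without the replicate block, 0 genes differed (686 at an unadjusted p under 0.05), 174 genes against 1298 were called in THP-1 cells, 0 in MOLM-13 cells (466 at an unadjusted p under 0.05), and 235 against 395 were opposite. The fit without the pairing leaves the spread between replicate numbers in the error. THP-1 calls were 748 with no filter and 442 to 1413 without one pair. MOLM-13 calls were 1 with TPM and 0 to 5 without one pair, and opposite genes 383 to 645. Of 44 named differing genes, 27 were called in no more of their 17 or 18 settings than they were lost in (median 8 called), from 4 of 17 for TSC22D3 and 5 of 17 for SLC2A3 to 16 of 18 for RFLNB, PLP2, GAS6 and TSPOAP1. FGR, with a difference of 0.02, changed sign to -0.01 with centring and ran from -0.20 to 0.45 when one pair was left out, below 0 without replicate 2 or 3 of MOLM-13 or replicate 1 of THP-1 cells. List medians moved from 0.25 to between 0.17 and 0.29 for NRF2 targets, from 0.21 to between 0.13 and 0.24 for lysosomal genes and from -0.26 to between -0.32 and -0.15 for granule genes. Under the 3 rescalings, MOLM-13 changes stayed below 0 in 31 of 34 stress response, 23 of 23 mitosis and 26 of 26 replication genes. Precision is limited by 3 pairs per line and an unknown depth, and the cause of the changes in count was not tested beyond what a setting itself alters.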
